A study of Homo sapiens with 6 samples.

Results

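Genes of mitosis and the G2/M transition were followed in RPMI-8402, a human T-cell acute lymphoblastic leukaemia (T-ALL) line that expresses Cas9 stably. Cells received doxycycline (DOX), which switches on guide RNAs against MYC and MYCN, or the solvent DMSO, and total RNA was sequenced after 72 hours, with 3 libraries per group. All cells, the DMSO controls included, carry Cas9 in tetracycline-free serum. Cells given doxycycline without guides were not analysed here, and effects of the drug cannot be told apart from those of the guides. Both genes are targets in the series text, while the label of the treatment gives MYC and that of the genotype gives MYCN_knockout for DOX. Whether the cells are 1 clone or a pool was not given in the sources used here.

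The genes described are 54 named regulators and structural proteins of cell division, taken by symbol from a table of 63677 genes. All 54 passed the filter on low counts, which left 15949 genes to test. Where SPC25 and CDCA3 had a second identifier, that identifier held 0 reads. By role they are 7 mitotic kinases, 9 kinetochore and checkpoint genes, 7 kinesins of the spindle, 5 condensin subunits, 5 cyclin and CDC25 genes, 5 genes of the anaphase-promoting complex (APC/C) and of anaphase, 3 chromosomal passenger genes, 6 spindle and microtubule genes, 4 cytokinesis genes, the pair MKI67 and TOP2A, and the transcription factor FOXM1.

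As background, most of these genes are transcribed late in the cell cycle. In G1 a repressor complex built on the MuvB core holds them off through a promoter element called the cell cycle genes homology region (CHR), and in late S phase and G2 the same core, now bound to MYBL2 and FOXM1, helps to switch them on. CCAAT boxes bound by NF-Y often lie upstream of the CHR. Cyclin B with CDK1 then starts mitosis, condensin compacts the chromosomes, kinetochores attach them to the spindle, and the APC/C with CDC20 triggers their separation once the spindle checkpoint is satisfied. In a culture of mixed phases, more cells in G2 and mitosis and more of each RNA per cell cannot be told apart.

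Promoter sequences are shown for the members called in either direction by a test described further on, together with PLK1, a kinase with a log2 fold change near 0, and KIF20A, a kinesin with no CHR match. They run from 100 bases before to 5 bases after the start annotated by RefSeq on GRCh38.p14, 5′ to 3′ on the strand of the gene. Capitals mark the CHR letters TTTGAA and the CCAAT box letters CCAAT, searched on both strands, so that TTCAAA and ATTGG are the same motifs read on the other strand.
MKI67: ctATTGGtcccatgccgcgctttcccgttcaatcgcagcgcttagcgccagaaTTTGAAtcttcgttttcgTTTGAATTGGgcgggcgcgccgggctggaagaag
TOP2A: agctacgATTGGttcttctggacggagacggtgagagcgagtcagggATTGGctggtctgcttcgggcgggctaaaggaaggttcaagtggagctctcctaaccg
ASPM: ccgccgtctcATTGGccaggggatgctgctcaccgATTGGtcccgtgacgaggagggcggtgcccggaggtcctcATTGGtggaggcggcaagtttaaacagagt
ANLN: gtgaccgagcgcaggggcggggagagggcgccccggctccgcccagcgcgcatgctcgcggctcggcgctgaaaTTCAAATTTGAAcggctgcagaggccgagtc
HMMR: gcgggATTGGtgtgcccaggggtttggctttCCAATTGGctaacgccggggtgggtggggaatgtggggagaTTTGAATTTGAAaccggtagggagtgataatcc
NDC80: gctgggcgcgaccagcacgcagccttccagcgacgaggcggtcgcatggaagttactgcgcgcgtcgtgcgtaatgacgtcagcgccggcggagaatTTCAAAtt
PLK1: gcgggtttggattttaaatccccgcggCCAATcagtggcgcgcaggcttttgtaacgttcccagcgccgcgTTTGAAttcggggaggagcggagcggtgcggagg
KIF20A: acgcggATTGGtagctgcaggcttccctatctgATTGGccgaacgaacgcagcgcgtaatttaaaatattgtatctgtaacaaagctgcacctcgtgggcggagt
The stretches lie at chr10:128126419-128126523 (minus strand) for MKI67, chr17:40417892-40417996 (minus) for TOP2A, chr1:197146665-197146769 (minus) for ASPM and chr7:36389762-36389866 (plus) for ANLN. Those of HMMR, NDC80, PLK1 and KIF20A lie at chr5:163460532-163460636, chr18:2571457-2571561, chr16:23678789-23678893 and chr5:138179012-138179116, all on the plus strand. In ANLN and in HMMR a pair of CHR matches stands side by side, and in MKI67 the second CHR match runs into a CCAAT box. The CHR match of NDC80 spans the annotated start. TOP2A and ASPM have CHR matches further upstream, at 194, 151 and 113 bases before the start, outside the stretches shown. Over the whole window all 6 called genes therefore hold a CHR match, those higher and those lower in DOX alike, and ANLN and NDC80 hold no CCAAT box match.

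Among the 54 genes, 46 had a promoter in the RefSeq table, 9 of them with more than 1 annotated start; AURKA, BIRC5, BUB3, FOXM1, RACGAP1, TPX2, TTK and UBE2C had none there. In windows from 250 bases before to 50 after the start, the CHR letters were found in 35 of the 46 genes (76.1%), against 18.2% of all 27305 genes in the table, 42 of 102 other mitosis genes (41.2%) and 1 of 42 replication and G1/S genes (2.38%). CCAAT box letters were found in 37 of the 46 (80.4%), against 39.7% of all genes, and 28 held both motifs. The comparison lists held CCAAT letters often too, in 61 of 102 other mitosis genes (59.8%) and 24 of 42 replication and G1/S genes (57.1%). The letters CACGTG, the E-box that MYC with MAX is known to bind, were found in 5 of the 46 (10.9%), against 8.78% of all genes. Other mitosis genes gave 9.80% and replication and G1/S genes 11.9%. The 5 members are ANLN, CCNB1, CENPE, CENPF and PLK1. Within the 100 bases before the start the E-box was found in 0 of the 46, against 4.25% of all genes. CENPE and KIF2C held neither CHR nor CCAAT letters. These are matches of letters in 1 annotation and were not tested.

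**Figure D1:**
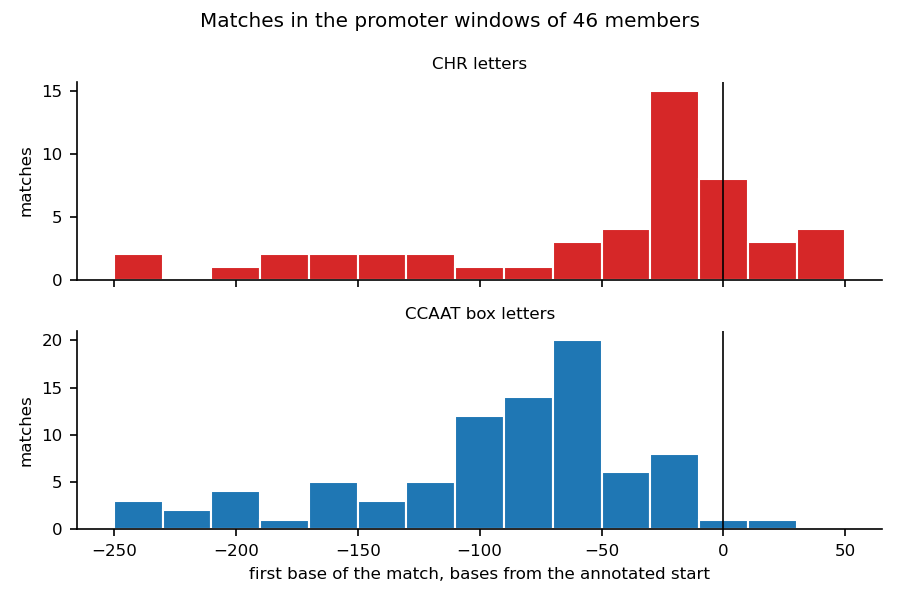
Position of CHR matches (upper panel) and CCAAT box matches (lower panel) in the promoter windows of 46 members, as bases from the annotated start on the x axis and number of matches on the y axis. A site in overlapping windows of a gene counts once per window; CHR matches gather just upstream of the start and CCAAT boxes further upstream, as in PLK1.

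The targeted genes were measured first. MYCN stood at 46.2, 50.05 and 53.7 CPM in DOX 12, 24 and 36, against 76.8, 109.5 and 86.9 CPM in DMSO 11, 23 and 35, a log2 fold change of -0.87 ± 0.13 with no overlap between the groups. MYC stood at 206, 200.5 and 193 CPM in DOX 12, 24 and 36, against 279, 201 and 256 CPM in DMSO 11, 23 and 35, a log2 fold change of -0.30 ± 0.12, and its groups overlapped. CPM is the edgeR unit in which counts are scaled by the library total, corrected with a TMM factor. Neither gene passed the quasi-likelihood test of edgeR, adjusted over all genes by Benjamini-Hochberg (adjusted p = 0.0726 and 0.176), and DESeq2 called MYCN alone (adjusted p = 1.08e-05 and 0.159). Without DMSO 11 the log2 fold changes were -0.98 for MYCN, which edgeR then called, and -0.20 for MYC (edgeR adjusted p = 0.0566), and over each library left out in turn they ran from -0.98 to -0.72 and from -0.42 to -0.20. A count over the whole transcript does not show the edit at the cut site.

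Library totals ran from 28602145 to 28911373 counts in DOX and from 28952786 to 29204148 in DMSO. DMSO 11 lay far from its own group: over the 54 genes its root mean square log2 distance was 0.11 to 0.15 to the DOX libraries and 0.44 and 0.41 to DMSO 23 and DMSO 35. Over 9311 genes at a mean of 10 CPM or more the same distances were 0.18 to 0.21 to DOX, and 0.43 and 0.41 to DMSO 23 and DMSO 35. Over the 54 genes DMSO 23 and DMSO 35 lay 0.17 apart, and the DOX libraries 0.080 to 0.11. The MYCN and MYC levels of DMSO 11 were above those of every DOX library. Whether DMSO 11 carries a wrong label or differs for another reason was not tested, and counts of calls are given with and without it. Separate cultures are not stated for the libraries, and the p-values reflect only how far these libraries vary, possibly for technical reasons. The line expressed T-cell genes, with a sum of 2395 to 2448 CPM over 11 T-ALL markers in DOX and of 2507 to 2665 in DMSO, against at most 7.95, 1.99 and 10.7 for 5 B-cell, 5 myeloid and 5 epithelial and fibroblast markers. The last list summed to 9.37 to 10.7 in DOX and 2.94 to 6.81 in DMSO, mostly COL1A1, and its part in the results was not tested, while EPCAM, KRT18 and COL1A2 did not pass the filter.

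With all 6 libraries, edgeR called 0 of the 54 genes in either direction at an adjusted p of 0.05, where it called 0.0313% of all genes tested (0.0125% higher and 0.0188% lower). At an unadjusted p under 0.05, 15 of the 54 stood higher in DOX (27.8%, against 11.2% of all genes) and 3 lower (5.56%, against 14.8%), where 26.0% of all genes passed in either direction. DESeq2's Wald test called 4 higher, 7.41% of the members against 3.37% of all genes, and 2 lower, 3.70% against 6.44%, where it called 9.81% of all genes in either direction. The higher ones were ASPM, MKI67, TOP2A and ANLN, and the lower ones HMMR and NDC80. DESeq2 shares of all genes with 6 libraries are over the 14093 genes given an adjusted p. With a library left out they are over all genes tested. limma-voom called 0, against 0.0125% of all genes higher and 0.0188% lower, with 17 and 2 members at an unadjusted p under 0.05 (31.5% and 3.70%, against 12.6% and 13.1% of all genes). edgeR with no filter on low counts called 5 higher, the same 4 and CCNB1, against 1.94% of all genes, and the same 2 lower, against 3.62% (5.56% in either direction). The authors' deposited table has ASPM, MKI67 and TOP2A higher and HMMR and NDC80 lower at its adjusted p of 0.05, with ANLN at 0.0546, where that table calls 2.96% of its genes higher and 6.61% lower.

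Most of the members had a small positive log2 fold change. The median over the 54 genes was 0.18, with a range from -0.54 to 0.61, and 42 of them (77.8%) were above 0, against a median of -0.00307 and 49.7% above 0 over all genes tested. In 14 members (25.9%) every DOX library lay above every DMSO library, against 14.6% of all genes, and in 3 (5.56%) below, against 15.6%. The share of each library's reads that fell on the 54 genes was 1.204% to 1.23% in DOX, against 1.15% in DMSO 11, 0.965% in DMSO 23 and 1.03% in DMSO 35.

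The DOX libraries differed from DMSO 23 and DMSO 35 more than from DMSO 11. The median difference of the DOX mean from DMSO 23 and DMSO 35 was 0.32 on the log2 scale, and from DMSO 11 it was -0.017. Set against DMSO 11 alone, all DOX libraries lay above it in 18 of the 54 genes (33.3%) and below it in 17 (31.5%), close to the 34.1% and 34.6% of all genes. In 45 members (83.3%) DMSO 11 was nearer to the DOX mean than to the mean of the other DMSO libraries, as it was in 69.4% of all genes. Without DMSO 11, edgeR called 35 members higher (64.8%, against 23.7% of all genes) and 3 lower (5.56%, against 25.7%), and the median was 0.31. The 6 genes that DESeq2 called with all libraries were among them, at log2 fold changes of 0.76 for ASPM, 0.80 for MKI67, 0.52 for TOP2A, 0.44 for ANLN, -0.52 for HMMR and -0.73 for NDC80. DESeq2 without DMSO 11 called 34 higher, against 20.0% of all genes, and 3 lower, against 21.4% (41.5% in either direction). Without any other single library edgeR called 0 members, and 0 of all genes. DESeq2 called 0 members in those fits apart from ASPM without DMSO 23, against 0.203% to 0.510% of all genes higher and 0.380% to 0.705% lower. At an unadjusted p under 0.05, edgeR then had 4 to 9 members higher (7.41% to 16.7%) and 2 lower (3.70% each time). The shares of all genes higher were 6.89% without DMSO 23, 6.64% without DMSO 35, 6.06% without DOX 12, 7.11% without DOX 24 and 6.53% without DOX 36. The shares lower were 8.55%, 8.94%, 7.89%, 8.97% and 8.69% in the same order, so that the members' 7.41% without DMSO 35 and without DOX 36 was near the background.

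**Figure D2:**
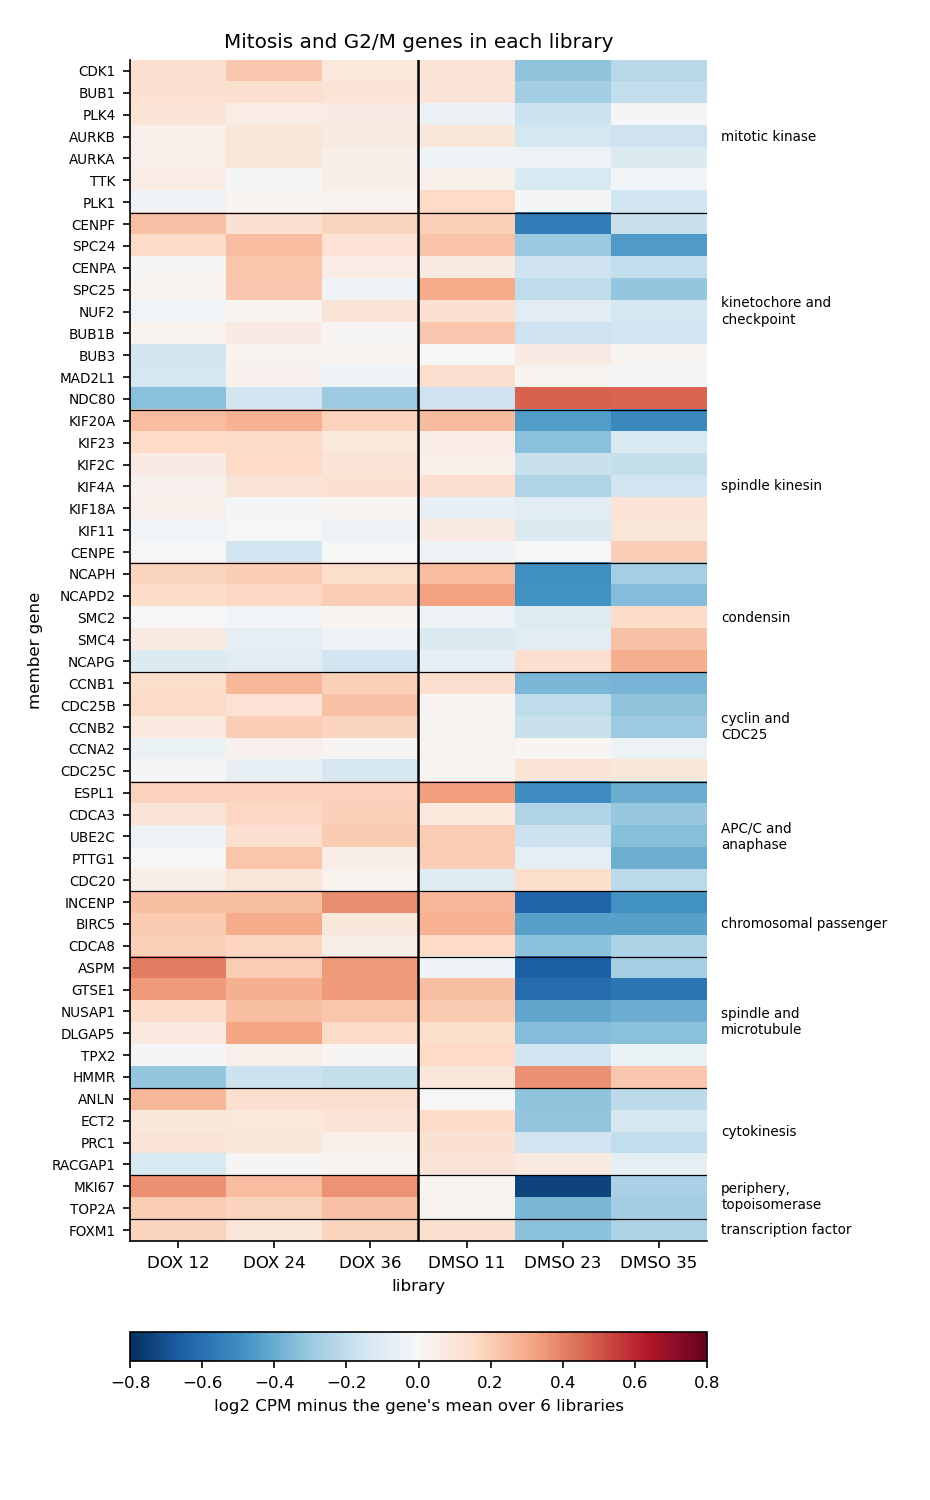
Each of the 54 genes (rows, grouped by role) in each library (columns, DOX left of the line and DMSO right of it), coloured by log2 CPM minus the mean of that gene over the 6 libraries. DMSO 11 resembles the DOX columns, DMSO 23 and DMSO 35 are low for most rows, and NDC80, HMMR and NCAPG run the other way.

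MKI67 and TOP2A are the most widely used marks of dividing cells. MKI67, the Ki-67 protein that coats mitotic chromosomes, stood at 893, 824 and 889 CPM in DOX 12, 24 and 36, against 709, 416 and 581 CPM in DMSO 11, 23 and 35. TOP2A, the topoisomerase that untangles sister DNA, stood at 1104, 1085 and 1126 CPM in DOX 12, 24 and 36, against 979.6, 744 and 791 CPM in DMSO 11, 23 and 35. Every DOX library was above every DMSO library for both, and DMSO 11 was the highest of the DMSO libraries. The log2 fold changes were 0.61 ± 0.18 for MKI67 and 0.40 ± 0.12 for TOP2A, with DESeq2 adjusted p-values of 0.0199 and 0.0327 and edgeR adjusted p-values of 0.105 and 0.110. The DOX mean lay above DMSO 11 by 0.29 for MKI67 and 0.17 for TOP2A on the log2 scale. Per length, TOP2A was among the most abundant members, at 752 ± 26.5 TPM in DOX and 565 ± 64.5 TPM in DMSO (SD, n = 3 each); TPM here were computed from the counts over exon lengths of GENCODE 29.

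FOXM1, a transcription factor that activates G2/M genes, stood at 267, 253 and 267 CPM in DOX 12, 24 and 36, against 258, 188 and 198 CPM in DMSO 11, 23 and 35. Its log2 fold change was 0.29 ± 0.13, the groups overlapped through DMSO 11, and neither test called it (edgeR adjusted p = 0.189). MYBL2 and the MuvB subunits, which were listed with the other mitosis genes, had a median log2 fold change of 0.044 over 6 genes. DESeq2 called 0 of these 6, where it called 3.37% of all genes higher and 6.44% lower. Without DMSO 11 edgeR called 2 of the 6 higher (33.3%, against 23.7% of all genes) and 1 lower (16.7%, against 25.7%), with a median of -0.0095.

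Among the cyclins and CDC25 phosphatases that set mitotic entry, members differed in direction. CCNB1, the cyclin B1 partner of CDK1, stood at 197, 215 and 204 CPM in DOX 12, 24 and 36, against 196, 139 and 138 CPM in DMSO 11, 23 and 35. CDC25B, a phosphatase that activates CDK1, stood at 338, 329 and 357 CPM in DOX 12, 24 and 36, against 309, 264 and 243 CPM in DMSO 11, 23 and 35. For both, the DOX libraries lay above the DMSO libraries, by a small margin over DMSO 11. The log2 fold changes were 0.38 ± 0.14 for CCNB1 and 0.33 ± 0.11 for CDC25B, with edgeR adjusted p-values of 0.146 and 0.124. CCNB2, a second B-type cyclin, was at 0.30 ± 0.098 on the log2 scale, also with no overlap. CCNA2, the cyclin A2 of S phase and G2, was level, at 219 ± 6.55 CPM in DOX and 219.6 ± 5.41 CPM in DMSO (SD, n = 3 each). CDC25C, another activator of CDK1 and the least abundant member per length, stood at 25.6, 24.7 and 23.6 CPM in DOX 12, 24 and 36, against 26.3, 28.0 and 27.7 CPM in DMSO 11, 23 and 35. Its DOX libraries were all below its DMSO libraries, by little: the log2 fold change was -0.15 ± 0.089 (edgeR adjusted p = 0.307). The log2 ratio of CCNB1 to CCNA2 was -0.092 ± 0.027 in DOX and -0.50 ± 0.27 in DMSO (SD, n = 3 each), with -0.19 in DMSO 11.

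All 7 mitotic kinases had a log2 fold change above 0, from 0.00267 to 0.28. DESeq2 called 0 of the 7, against 3.37% of all genes higher and 6.44% lower. CDK1, the kinase that drives entry, stood at 278, 293 and 269 CPM in DOX 12, 24 and 36, against 273, 203 and 217 CPM in DMSO 11, 23 and 35. BUB1, a checkpoint kinase that marks centromeres, stood at 216, 217 and 215 CPM in DOX 12, 24 and 36, against 214, 164 and 173.5 CPM in DMSO 11, 23 and 35. In CDK1 the groups overlapped and in BUB1 DMSO 11 lay just below the lowest DOX library. Fold changes on the log2 scale were 0.28 ± 0.12 for CDK1 and 0.23 ± 0.11 for BUB1, with edgeR adjusted p-values of 0.191 and 0.214. PLK4, which starts centriole duplication, and AURKA, the spindle pole kinase, also had DOX libraries above all DMSO libraries, at log2 fold changes of 0.15 ± 0.080 and 0.12 ± 0.077. AURKB, the kinase of the passenger complex, and TTK, which starts the spindle checkpoint, were at 0.14 ± 0.093 and 0.065 ± 0.081. PLK1, the kinase of centrosome maturation, was level at 212 ± 4.26 CPM in DOX and 212 ± 23.6 CPM in DMSO (SD, n = 3 each). Its promoter carries CHR and CCAAT letters, and a link of such letters to the fold changes was not tested. The order per length in DOX ran from AURKB at 353 ± 1.94 TPM, CDK1 at 312 ± 9.62 and AURKA at 283 ± 1.55 to TTK at 56.0 ± 2.63 (SD, n = 3).

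The 3 chromosomal passenger genes beside AURKB all had positive log2 fold changes and overlapping groups. INCENP, the scaffold of the complex, stood at 248, 248 and 272 CPM in DOX 12, 24 and 36, against 252, 134 and 150.1 CPM in DMSO 11, 23 and 35. BIRC5, or survivin, which brings the complex to centromeres, stood at 126, 134 and 116 CPM in DOX 12, 24 and 36, against 132, 80.8 and 80.6 CPM in DMSO 11, 23 and 35. In both genes DMSO 11 fell among the DOX libraries while DMSO 23 and DMSO 35 were far below. The log2 fold changes were 0.52 ± 0.21 for INCENP, 0.36 ± 0.19 for BIRC5 and 0.26 ± 0.13 for CDCA8 (borealin), with edgeR adjusted p-values of 0.174, 0.254 and 0.236. Without DMSO 11 the edgeR log2 fold changes were 0.85, 0.63 and 0.43, all called, in a fit that called 49.4% of all genes.

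Spindle and microtubule genes held both the largest positive value and, in HMMR, one of the lowest. ASPM, a spindle pole protein, stood at 288, 249.6 and 275 CPM in DOX 12, 24 and 36, against 212, 138 and 181 CPM in DMSO 11, 23 and 35. GTSE1, which steadies microtubules and also restrains p53, stood at 139.8, 134 and 139.8 CPM in DOX 12, 24 and 36, against 131, 72.0 and 73.7 CPM in DMSO 11, 23 and 35. In both, DOX was above DMSO in every library, by a wide margin for ASPM and by 0.076 on the log2 scale over DMSO 11 for GTSE1. Fold changes on the log2 scale were 0.61 ± 0.15 for ASPM and 0.58 ± 0.21 for GTSE1, and the DESeq2 adjusted p-values were 0.00907 and 0.0675 (edgeR 0.0922 and 0.143). ASPM was the only member that DESeq2 still called without DMSO 23 (log2 fold change 0.46, DESeq2 adjusted p = 0.0490).

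HMMR, a hyaluronan receptor that also acts at the spindle poles, stood at 76.6, 84.3 and 83.0 CPM in DOX 12, 24 and 36, against 101, 122 and 110.0 CPM in DMSO 11, 23 and 35. Every DOX library was below every DMSO library, DMSO 11 included, by 0.31 on the log2 scale for the mean. The log2 fold change was -0.45 ± 0.095, with a DESeq2 adjusted p of 0.00471 and an edgeR adjusted p of 0.0892, the lowest of the members. HMMR shares 113 exonic bases with the antisense gene HMMR-AS1 in GENCODE 29, and the strand setting of the counting was not given in the sources used here. NUSAP1 and DLGAP5, which bundle spindle microtubules, were at 0.38 ± 0.16 and 0.35 ± 0.14. TPX2, the activator of AURKA and a binding partner of HMMR, was level at 519 ± 8.82 CPM in DOX and 512 ± 57.4 CPM in DMSO (SD, n = 3 each). The log2 ratio of HMMR to TPX2 was -2.67 ± 0.056 in DOX and -2.20 ± 0.30 in DMSO (SD, n = 3 each), and all DOX libraries lay below DMSO 11 at -2.51.

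**Figure D3:**
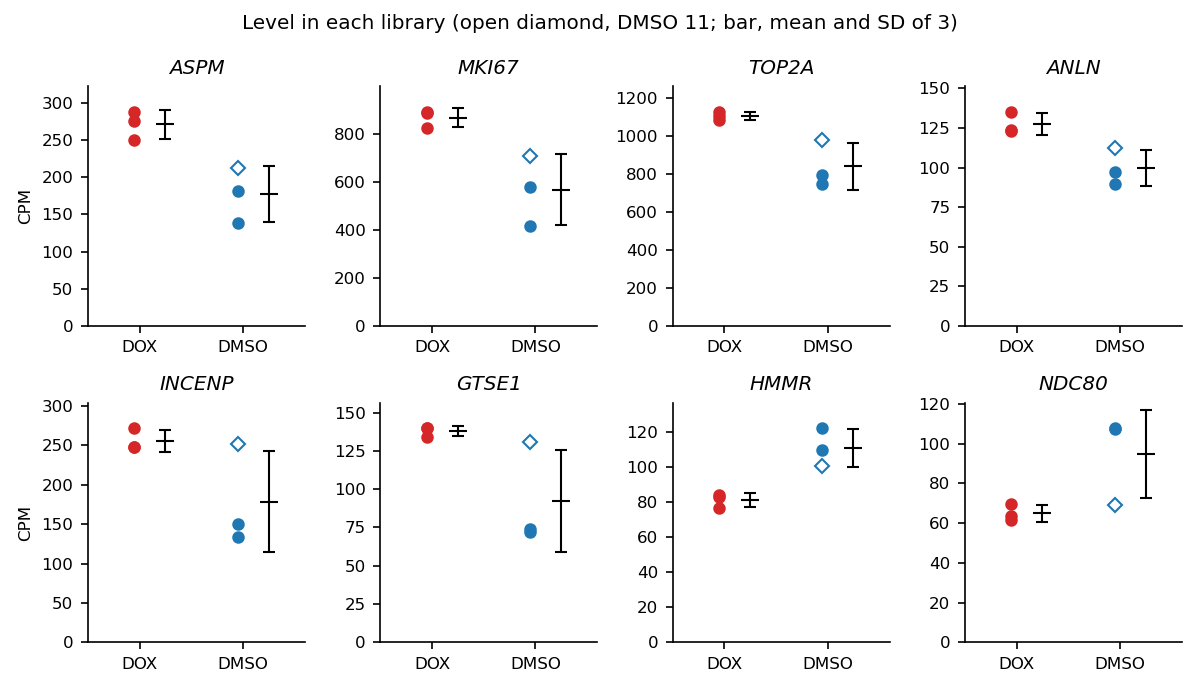
CPM (y axis, from 0) in each library of 8 members: filled circles are DOX (red) and DMSO 23 and 35 (blue), open diamonds DMSO 11, and the bars give mean and SD of 3 libraries. ASPM, MKI67, TOP2A, ANLN and GTSE1 show no overlap upward and HMMR none downward, while DMSO 11 lies among the DOX values for INCENP and NDC80.

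The kinetochore and checkpoint genes had log2 fold changes above 0 in 6 cases and below 0 in 3. NDC80, the microtubule-binding subunit that gives its complex its name, stood at 61.6, 69.8 and 63.6 CPM in DOX 12, 24 and 36, against 69.3, 108 and 107 CPM in DMSO 11, 23 and 35. DMSO 11 fell among the DOX libraries and DMSO 23 and DMSO 35 were far above. The log2 fold change was -0.54 ± 0.16, called by DESeq2 (adjusted p = 0.0326) and not by edgeR (adjusted p = 0.110). Its partner NUF2 was at 0.069 ± 0.094, SPC24 at 0.32 ± 0.17 and SPC25 at 0.12 ± 0.16 on the log2 scale. The log2 ratio of NDC80 to NUF2 was -0.36, -0.22 and -0.44 in DOX 12, 24 and 36, against -0.33, 0.52 and 0.56 in DMSO 11, 23 and 35. In this ratio of RNA levels, then, DMSO 23 and DMSO 35 differed from the other 4 libraries.

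CENPF, a large outer kinetochore protein, stood at 471, 436 and 454 CPM in DOX 12, 24 and 36, against 458, 273 and 355 CPM in DMSO 11, 23 and 35. Its groups overlapped, and the log2 fold change was 0.33 ± 0.17 (edgeR adjusted p = 0.252). CENPA, the centromeric histone, was at 0.19 ± 0.10, and the checkpoint genes BUB1B, BUB3 and MAD2L1 were at 0.057 ± 0.11, -0.059 ± 0.087 and -0.095 ± 0.089. MAD2L1, the checkpoint protein that holds back CDC20, had 208, 234 and 224 CPM in DOX 12, 24 and 36, against 252, 233 and 227 CPM in DMSO 11, 23 and 35, with overlapping groups (edgeR adjusted p = 0.506). The median of the 9 kinetochore and checkpoint genes was 0.069, and in none of them did the groups separate, where 14.6% of all genes separated upward and 15.6% downward.

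Of the kinesins, KIF20A and KIF23, motors of the central spindle, had the largest differences. KIF20A stood at 104, 106 and 99.7 CPM in DOX 12, 24 and 36, against 104, 64.3 and 61.3 CPM in DMSO 11, 23 and 35. KIF23 stood at 90.4, 90.1 and 85.7 CPM in DOX 12, 24 and 36, against 84.2, 64.2 and 74.3 CPM in DMSO 11, 23 and 35. DMSO 11 lay among the DOX libraries for KIF20A and below all of them for KIF23. The log2 fold changes were 0.43 ± 0.19 and 0.26 ± 0.11, with edgeR adjusted p-values of 0.190 and 0.174. KIF2C, a motor that shortens microtubules, was at 0.22 ± 0.097, and the chromokinesin KIF4A at 0.17 ± 0.11; the second was counted beside a near-identical copy, KIF4B, that held 31 reads in all. The other 3 were close to level: KIF18A, which steadies chromosomes on the plate, at 0.026 ± 0.085, KIF11, which pushes the poles apart, at -0.042 ± 0.090, and CENPE, the kinetochore motor, at -0.11 ± 0.094. CENPE had 138, 124 and 138 CPM in DOX 12, 24 and 36, against 135, 138 and 159 CPM in DMSO 11, 23 and 35, with overlapping groups (edgeR adjusted p = 0.466).

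Condensin subunits were split. NCAPD2 and NCAPH belong to condensin I alone, as does NCAPG, while the ATPases SMC2 and SMC4 are shared with condensin II. NCAPD2 stood at 604, 609.7 and 626 CPM in DOX 12, 24 and 36, against 679, 388 and 429 CPM in DMSO 11, 23 and 35. NCAPH stood at 137, 138 and 133 CPM in DOX 12, 24 and 36, against 143, 85.9 and 99.9 CPM in DMSO 11, 23 and 35. Both were lower in DMSO 23 and DMSO 35 than in the other libraries, and highest in DMSO 11. NCAPG, in contrast, stood at 136, 138 and 132 CPM in DOX 12, 24 and 36, against 139, 161 and 179 CPM in DMSO 11, 23 and 35, with every DOX library below every DMSO library. The log2 fold changes were 0.30 ± 0.19 for NCAPD2, 0.31 ± 0.17 for NCAPH and -0.24 ± 0.10 for NCAPG, with edgeR adjusted p-values of 0.345, 0.270 and 0.186. SMC2 and SMC4 were level, at -0.0054 ± 0.094 and -0.029 ± 0.12. The log2 ratio of NCAPG to NCAPH was -0.013 ± 0.0062 in DOX, against -0.045 in DMSO 11, 0.90 in DMSO 23 and 0.84 in DMSO 35. NCAPG shares 1631 exonic bases with LCORL on the opposite strand in GENCODE 29, the longest such overlap among the members. The 3 subunits of condensin II had a median of 0.057.

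Among the genes of the APC/C and anaphase, ESPL1, the protease separase that cuts cohesin, stood at 203, 203 and 203 CPM in DOX 12, 24 and 36, against 225, 126 and 136 CPM in DMSO 11, 23 and 35. CDCA3, a trigger of mitotic entry that the APC/C degrades, stood at 81.8, 85.5 and 86.7 CPM in DOX 12, 24 and 36, against 80.6, 64.5 and 61.5 CPM in DMSO 11, 23 and 35. DMSO 11 was the highest of all libraries for ESPL1 and just below the DOX libraries for CDCA3. Their log2 fold changes were 0.32 ± 0.20 and 0.30 ± 0.11, with edgeR adjusted p-values of 0.326 and 0.148. PTTG1, or securin, which holds separase inactive, was at 0.16 ± 0.14; UBE2C, the ubiquitin-conjugating enzyme of the APC/C, at 0.19 ± 0.14; and its activator CDC20 at 0.11 ± 0.11. UBE2C was the most abundant of the 54 genes per length, at 946 ± 77.1 TPM in DOX and 820.4 ± 125 TPM in DMSO (SD, n = 3 each). TPX2, CDC20 and TOP2A came next in DMSO, at 616 ± 51.9, 612 ± 76.7 and 565 ± 64.5 TPM, which do not differ beyond their spread (SD, n = 3).

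The cytokinesis genes were led by ANLN, or anillin, the scaffold of the contractile ring, at 135, 124 and 123 CPM in DOX 12, 24 and 36, against 112, 89.8 and 97.4 CPM in DMSO 11, 23 and 35. Every DOX library was above every DMSO library. The log2 fold change was 0.35 ± 0.10, called by DESeq2 (adjusted p = 0.0443) and not by edgeR (adjusted p = 0.102). ECT2, the exchange factor that activates RHOA at the furrow, stood at 206, 205 and 208 CPM in DOX 12, 24 and 36, against 215, 155 and 177 CPM in DMSO 11, 23 and 35, with DMSO 11 above all DOX libraries (log2 fold change 0.18 ± 0.12, edgeR adjusted p = 0.360). PRC1, which bundles the central spindle, was at 0.15 ± 0.10 and RACGAP1, the partner of KIF23, at -0.065 ± 0.089.

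**Figure D4:**
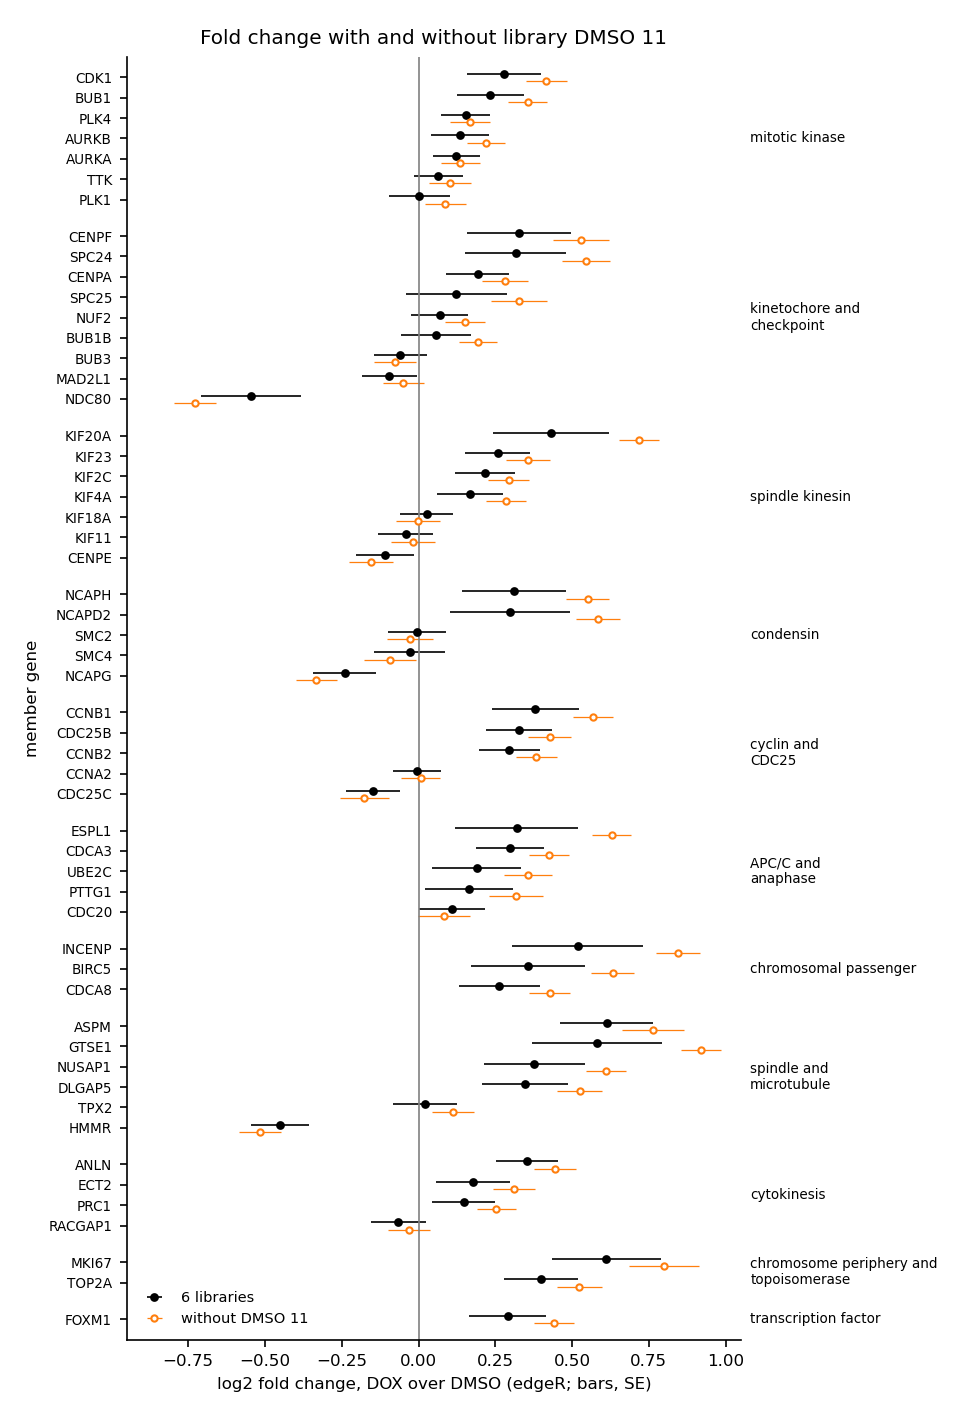
edgeR log2 fold change of DOX over DMSO (x axis; bars, SE) for each member (y axis, by role) with 6 libraries (black) and without DMSO 11 (orange). Leaving out DMSO 11 moves many of the values away from 0, to 0.92 for GTSE1 and -0.73 for NDC80.

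Other genes of mitosis had a median near 0. Over 116 further genes of cohesin, the kinetochore, the APC/C, mitotic entry, the spindle and cytokinesis, the median log2 fold change was 0.0071; edgeR called 0 of them, with 10 higher (8.62%, against 11.2% of all genes) and 15 lower (12.9%, against 14.8%) at an unadjusted p under 0.05. Without DMSO 11 it called 38 higher (32.8%, against 23.7%) and 31 lower (26.7%, against 25.7%), and the median was 0.0025. With all libraries DESeq2 called 3 higher (2.59%, against 3.37%) and 5 lower (4.31%, against 6.44%). The higher ones were KNL1, the scaffold of the outer kinetochore, at 0.42 ± 0.12, SPAG5 (astrin), a spindle protein, at 0.57 ± 0.18, and the kinesin KIF20B at 0.42 ± 0.13. The lower ones were CENPH at -0.43 ± 0.089 and CENPU at -0.45 ± 0.11, both of the inner kinetochore, MASTL (Greatwall), which blocks the phosphatase that opposes CDK1, at -0.40 ± 0.11, PKMYT1, an inhibitory kinase of CDK1, at -0.37 ± 0.10, and the APC/C subunit ANAPC10 at -0.48 ± 0.14. With any library other than DMSO 11 left out, DESeq2 called 0 of the 116. It then called 0.203% to 0.510% of all genes higher and 0.380% to 0.705% lower. In 11 of the 116 all DOX libraries lay above all DMSO libraries (9.48%, against 14.6% of all genes), and in 28 below (24.1%, against 15.6%). The medians were 0.18 over 20 spindle and centrosome genes, 0.12 over 13 genes of mitotic entry, -0.057 over 17 inner kinetochore genes and -0.11 over 17 APC/C subunits and regulators.

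Replication and G1/S genes, the neighbouring step of the cycle, had a median of 0.059 over 49 tested genes. edgeR called 0, with 0 higher and 9 lower at p under 0.05 before adjustment (18.4%, against 14.8% of all genes). By DESeq2, 0 were higher and 4 lower (8.16%, against 6.44%): PRIM1, a primase subunit, at -0.60 ± 0.11, GMNN (geminin), the inhibitor of origin licensing, at -0.36 ± 0.082, CDT1, the licensing factor, at -0.36 ± 0.098, and CDC45, a helicase subunit, at -0.31 ± 0.087. Every DOX library lay above DMSO 11 in 1 of the 49 genes (2.04%) and below it in 38 (77.6%), where all genes gave 34.1% and 34.6%. The calls of this list depended on that library. Without DMSO 11, edgeR called 20 of the 49 higher (40.8%, against 23.7%) and 9 lower (18.4%, against 25.7%), with a median of 0.13. With each library left out in turn, the median was negative only without DMSO 23, at -0.049. The median difference of the DOX mean was -0.14 from DMSO 11 and 0.13 from DMSO 23 and DMSO 35. The 4 named genes were called lower without DMSO 11 too, at log2 fold changes of -0.70 for PRIM1, -0.40 for GMNN, -0.42 for CDT1 and -0.38 for CDC45. With any library other than DMSO 11 left out, DESeq2 called only 1 of the 49 lower (2.04%). It then called 0.380% to 0.705% of all genes lower.

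**Figure D5:**
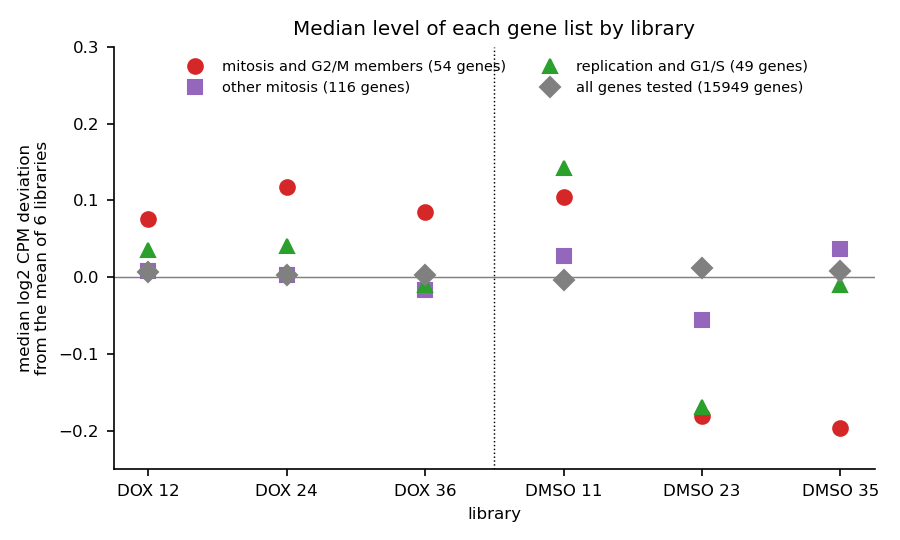
Median over each gene list of log2 CPM minus the gene's mean over 6 libraries (y axis) in each library (x axis, DOX left of the dotted line). The 54 members range from 0.076 to 0.12 in DOX and stand at 0.10 in DMSO 11, against -0.18 in DMSO 23 and -0.20 in DMSO 35.

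Length and base composition of the transcripts were set beside the fold changes. The members' Spearman correlation of log2 fold change with merged exon length was 0.041 over 54 genes, and with the GC content of the longest transcript 0.37; genes share libraries, so this is a description. Over all genes the tenth with the highest GC content had a median log2 fold change of 0.061 and the tenth with the lowest -0.073. The part of GC content in the members' values was not tested. In GENCODE 29, 20 of the 54 genes share exonic bases with a gene on the opposite strand, and 4 with a gene on the same strand: PRC1 over 3181 bases, NUSAP1 over 1787, BUB1B over 457 and CENPA over 138. The annotation release behind the counts was not given, and whether it holds these overlapping genes was not tested. Where it does, counts of the members are uncertain to that extent, and those of the last 4 under any strand setting.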

How the data were processed

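The deposited files are raw counts of reads per Ensembl gene in 6 libraries, made by the authors, and the authors' result table for DOX and DMSO. STAR 2.5.2a, featureCounts, DESeq2 1.12.4 and hg19 come from the submitters' processing notes, which give neither role nor order; for annotation release and strand setting, nothing is given in the sources used here. Per the file headers, the authors' table holds a mean normalised signal, log2 fold changes and their errors, a score (the test statistic) and p-values. All 1362 of its called genes have the sign of DOX over DMSO in the counts.

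Count columns show the group and a number found in no label, and were assigned to groups only. The 92 spike-in genes held 0 reads and were left out. After filterByExpr and TMM scaling, edgeR 4.0.16 in R 4.3.3 gave robust quasi-likelihood F tests, with Benjamini-Hochberg adjustment over 15949 genes and a threshold of 0.05. SE is the size of the log2 fold change over the root of F. The prior count of log2 CPM was 2. Alternatives were DESeq2 1.42.0, limma 3.58.1 (voom), other scalings and filters, a non-robust fit and leaving out each library; DESeq2 with a library left out was added after seeing the data. The scripts were tested on simulated data. Libraries differed pairwise by more than sampling noise (chi-square per gene at least 4.57). GENCODE 29, matched for 96.9% of genes, gave exon lengths, overlaps and GC content; its build is not that of the counts, and no coordinate was taken from it.

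The members, roles and lists were chosen with earlier results of these data known. Values in every library are given for members called by edgeR or DESeq2, for the 6 highest and 6 lowest fold changes and for the 2 largest changes of each role. Named genes of the other lists are those called by edgeR or DESeq2.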

Additional observations from a re-analysis of the deposited data

How the results depend on the processing

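edgeR with 6 libraries called 2 genes higher and 3 lower in DOX and 0 and 0 of the members. DESeq2 called 475 and 908 genes and 4 and 2 members, and edgeR with no filter on low counts called 615 and 1146 genes (1.94% and 3.62%) and 5 and 2 members, the same 6 and CCNB1; the cause was not tested. limma-voom, DESeq2 size factors, total count only, a minimum of 1 CPM in 3 libraries and the non-robust fit called 0 members. Of all genes, these settings called 0.0125% to 0.0188% higher and 0.0188% to 0.0223% lower. With each library left out, edgeR called 0 to 3894 genes higher and 0 to 4215 lower, and 0 to 35 members higher and 0 to 3 lower; in every case the highest value is that without DMSO 11 and the others are 0. DESeq2 with each library left out, added after the data were seen, called 33 to 3286 genes higher and 62 to 3520 lower, and 0 to 34 members higher and 0 to 3 lower, again highest without DMSO 11. For DESeq2 the genes called higher and lower were 83 and 107 without DMSO 23, 73 and 115 without DMSO 35, 57 and 109 without DOX 24, and 40 and 99 without DOX 36; ASPM was the 1 member called, without DMSO 23. The members' median ran from 0.15 to 0.31 (edgeR) and 0.15 to 0.32 (DESeq2) with each library left out. No paired analysis was possible because the count columns carry none of the labels' replicate numbers. Pairing by neighbouring column numbers, which no label gives, was not tried. Each member had at least 563 counts in every library; the median SE of the members was 0.069 without DMSO 11 and 0.11 with it, lower without it in all 54.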
